A study of Mus musculus with 6 samples.

Results

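The collagens are the most abundant structural proteins of the extracellular matrix, and the 44 genes described here are every row of the deposited gene table whose symbol has the form of a collagen chain (Col, a type number, a and a chain number), out of 50385 rows. They were grouped into 6 classes by the structure their proteins build: 11 fibrillar chains, 6 chains of basement membrane collagen (type IV), 9 FACITs (fibril-associated collagens with interrupted triple helices), 6 chains of the beaded-filament type VI, 3 network-forming chains (types VIII and X) and 9 others. RNA came from hearts of male Mdx/Utrn dKO mice, which lack dystrophin and its relative utrophin and serve as a model of Duchenne muscular dystrophy. There were 3 libraries from mice given setanaxib, a Nox4 inhibitor, by oral gavage at 60 mg/kg/day for 12 weeks, and 3 from mice given corn oil as vehicle for the same 12 weeks. The mice of both groups carried the same genotype and were 2 to 3 months old when dosing began. No wild-type heart is among the 6 libraries, the labels give neither the alleles behind the knockouts nor whether each library is a separate animal, and p-values therefore measure the spread between these libraries.

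A collagen molecule is a helix of 3 chains, and most types assemble from chains of more than 1 gene. Types I and III are the fibrils that stiffen the heart in fibrosis, with type V inside the fibril, where it starts fibril assembly. Type IV forms the sheet of the basement membrane around every cardiomyocyte and capillary, type VI forms microfibrils that tie this sheet to the fibrils, FACITs sit on fibril surfaces, and types XV and XVIII lie at the outer face of basement membranes. In the heart, fibroblasts are the main source of the fibrillar chains, and endothelial and mural cells contribute much of the type IV.

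Of the 44 genes, 30 had enough estimated counts to be tested, 12 were listed at 0 in all 6 libraries, and 2 lay below the filter. Of the 30, 28 were above 0 in every library. The 12 listed at 0 were Col2a1, Col11a1 and Col24a1 of the fibrillar class, Col9a1, Col9a2, Col9a3, Col19a1 and Col22a1 of the FACITs, Col6a4 and Col6a5 of type VI, and Col7a1 and Col25a1. An estimated count of 0 need not mean that the transcript was absent. Col13a1 had 61 estimated counts in setanaxib replicate 2 and 110 in vehicle replicate 2, Col26a1 had 13 in vehicle replicate 3, and both were at 0 in the other libraries. Libraries held 110803307 to 154003318 estimated counts in all, and levels below are CPM, the deposited counts scaled to a common library size with TMM factors.

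The markers of heart muscle, among them Myh6 and Tnnt2, were at 76210 to 106200 summed CPM with setanaxib and 94930 to 98750 with vehicle. Setanaxib replicate 3 stood apart. Its 4 measured atrial markers summed to 3129 CPM, against 68.8 and 113 CPM in the other setanaxib libraries and 125 to 589 CPM with vehicle. Its 7 lung and airway markers summed to 656 CPM, against 0.654 and 1.63 CPM in the other setanaxib libraries and 0 to 21.1 CPM with vehicle. Sftpc, Sftpb and Nkx2-1 were listed at 0 in all of those 5. Scgb1a1 alone was at 598 CPM in setanaxib replicate 3, so the sum rests largely on this gene. Ager, on the same list, went the other way, at 0.516 CPM there against 1.525 and 0.54 CPM in the other setanaxib libraries. With vehicle Ager was at 0 to 0.257 CPM. The 6 adipocyte markers summed to 209 CPM in setanaxib replicate 3, against 0.456 and 0.723 CPM in the other setanaxib libraries and 0.459 to 7.31 CPM with vehicle. The part of these tissues in the collagen values was not tested. The main counts and several chains that rest on this library are also given without it. Class sums, class shares and the lists of markers and collagen-related genes are given only with it.

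Per kilobase of transcript, 5 chains made up most of the collagen message in these hearts. Col4a1 averaged 44.0 ± 15.8 CPM per kb with setanaxib and 56.7 ± 6.11 with vehicle (SD, n = 3 each), and its partner Col4a2 averaged 35.1 ± 8.67 CPM per kb with setanaxib and 46.5 ± 4.62 with vehicle. Col1a1 averaged 26.7 ± 10.2 CPM per kb with setanaxib and 50.4 ± 8.53 with vehicle, Col3a1 22.4 ± 7.32 with setanaxib and 43.1 ± 4.76 with vehicle, and Col1a2 16.3 ± 4.25 with setanaxib and 27.9 ± 3.62 with vehicle. These 5 chains together took 57.1% to 66.7% of the summed collagen CPM per kb in setanaxib libraries and 61.7% to 65.9% in vehicle libraries. Below them came Col6a1, Col6a2 and Col15a1, at 20.3, 17.0 and 14.0 CPM per kb on average with setanaxib and 27.5, 25.4 and 21.3 with vehicle. The other 22 tested chains averaged under 10 CPM per kb in either group. Within each of the 6 libraries Col4a1 exceeded Col4a2, Col1a1 exceeded Col3a1 and Col3a1 exceeded Col1a2 per kilobase. The place of type IV against type I varied, with Col4a2 above Col1a1 in 3 of the 6 libraries.

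**Figure D1:**
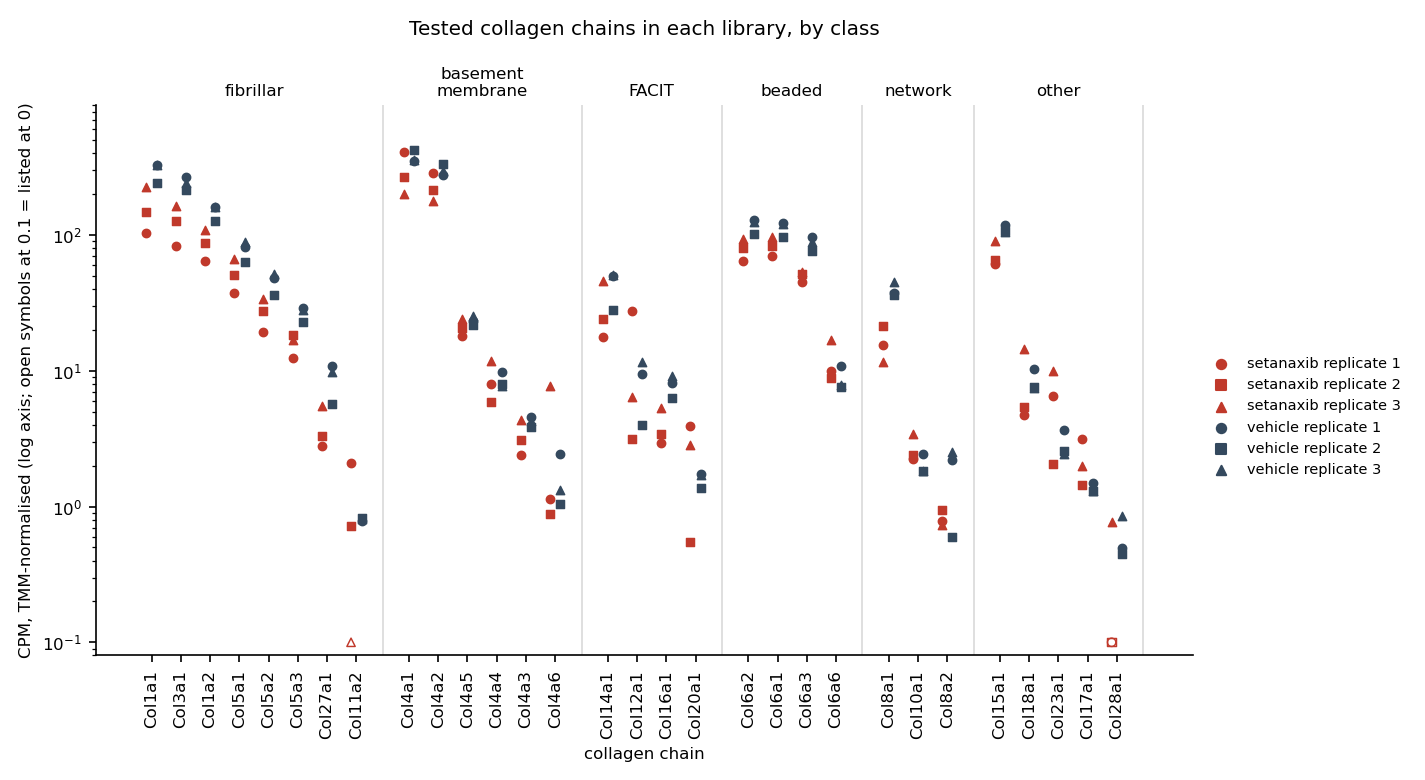
Normalised level (CPM, log axis) of the 30 tested collagen chains in each of the 6 libraries, grouped by class, with the 3 setanaxib libraries in red left of the 3 vehicle libraries in blue; open symbols are libraries listed at 0. CPM is not per length, so heights compare libraries within a chain. For 11 chains all 3 setanaxib points lie below all 3 vehicle points.

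Collagen chains were mostly lower after setanaxib, but no single chain passed the test across all genes. Of the 30 tested chains, 21 had a lower and 9 a higher mean with setanaxib, and the median log2 fold change (setanaxib minus vehicle) was -0.50, against 0.01 over all 20472 tested genes, of which 48.4% were lower. edgeR's quasi-likelihood test with Benjamini-Hochberg adjustment over all genes called 0 of the 30, against a background of 0.00488% called lower, and the smallest adjusted p among them was 0.234. At an unadjusted p under 0.05, 13 chains were lower and 0 higher, that is 43.3% of the tested chains beside 4.69% of all tested genes called lower and 3.76% called higher. For 11 chains, all lower, the 3 setanaxib libraries lay below the 3 vehicle libraries, which is 36.7% of the chains beside 9.46% of all genes lower and 8.11% higher without overlap. DESeq2 called 8 chains lower and 0 higher, where it called 1.52% of all genes lower and 0.905% higher, and limma-voom called 0. Without setanaxib replicate 3 the median moved to -0.71, 18 of 31 tested chains (58.1%) were lower without overlap beside 18% of all genes, and edgeR again called 0, with 17 lower at an unadjusted p under 0.05 (54.8%, beside 7.91% of all genes). In whole hearts, fewer cells of a type and less RNA per cell cannot be told apart.

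The counts differed by abundance. Of all tested genes, 9.46% were lower without overlap, but shares over all genes were not taken within each band. The difference between bands can therefore not be read as particular to collagen chains. All 10 chains that averaged at least 50 CPM over the 6 libraries were lower (median log2 fold change -0.61), 6 of them without overlap. Of the 11 chains between 5 and 50 CPM, 8 were lower, 5 without overlap (median -0.55). Of the 9 chains under 5 CPM, 3 were lower and 6 higher, with 0 lower without overlap (median 0.41). Among the setanaxib libraries, replicate 1 was lowest for 18 of the 30 chains and replicate 3 highest for 21, and among the vehicle libraries replicate 2 was lowest for 23. All of these held together for 15 of the 30 chains, 1 of them with setanaxib replicates 1 and 2 tied at 0.

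**Figure D2:**
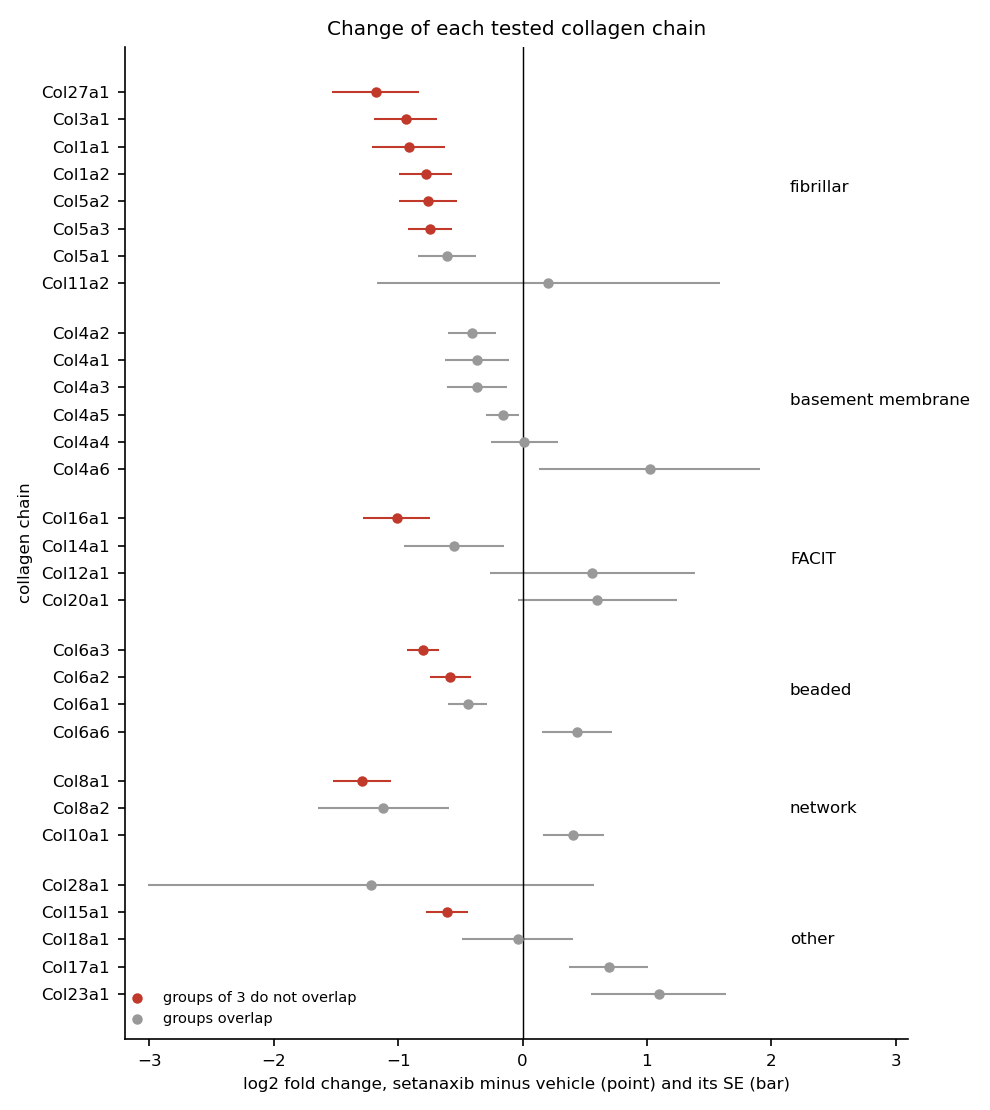
Log2 fold change of each tested chain, setanaxib minus vehicle, with its SE as a bar, grouped by class and sorted within it. Red marks the 11 chains whose groups of 3 libraries do not overlap, and all of them lie left of 0, in the fibrillar, FACIT, beaded, network and other classes.

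Fibrillar chains were the class with the largest share of lower chains. Of 8 tested, 7 were lower, 6 of them without overlap, and the class median was -0.77. Col1a1, the major chain of type I, the main load-bearing fibril of scar, was at 103, 148 and 224 CPM in setanaxib replicates 1 to 3, against 327, 240 and 329 CPM in vehicle replicates 1 to 3. Every setanaxib library was below every vehicle library, with setanaxib replicate 3 nearest to vehicle replicate 2 (log2 fold change -0.92, SE 0.29, edgeR adjusted p = 0.490, DESeq2 adjusted p = 0.0537). Col1a2, the second chain of the same molecule, was at 63.7, 87.8 and 109 CPM with setanaxib, against 159, 127 and 161 CPM with vehicle. The libraries stood in a like order and did not overlap (log2 fold change -0.78, SE 0.21, edgeR adjusted p = 0.432, DESeq2 adjusted p = 0.0203). Col3a1, the only chain of type III, which forms thinner and more compliant fibrils, was at 83.1, 127 and 164 CPM with setanaxib, against 266, 213 and 239 CPM with vehicle. Its groups did not overlap either (log2 fold change -0.94, SE 0.25, edgeR adjusted p = 0.420, DESeq2 adjusted p = 0.0120). An exon of Col3a1 overlaps another annotated gene, Gm47302, which leaves its count open to shared reads.

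The promoters of Col1a2 and Col3a1, abundant fibrillar chains lower with setanaxib in every library, are shown with those of Col4a1 and Col4a2, which are transcribed away from each other, and of Col8a1, the chain with the most negative log2 fold change. The windows are 250 bases before to 50 bases after RefSeq's start site on GRCm38.p6, matched by symbol for 35 of the 44 genes (38 windows), whereas the counts were made on GRCm39. Capitals mark every match, on either strand, to any of 4 short motifs. The TATA box was searched as TATAAA. The CCAAT box was searched by the letters of its name. The GC box was searched as GGGCGG. The letters that SMAD proteins bind were searched as CAGAC, and matches of different motifs may overlap. The Col1a2 window is chr6:4505368-4505667, plus strand, and the Col3a1 window chr1:45311288-45311587, plus strand. The Col4a1 window is chr8:11312777-11313076, minus strand, the Col4a2 window chr8:11312555-11312854, plus strand, and the Col8a1 window chr16:57754688-57754987, minus strand.
Col1a2: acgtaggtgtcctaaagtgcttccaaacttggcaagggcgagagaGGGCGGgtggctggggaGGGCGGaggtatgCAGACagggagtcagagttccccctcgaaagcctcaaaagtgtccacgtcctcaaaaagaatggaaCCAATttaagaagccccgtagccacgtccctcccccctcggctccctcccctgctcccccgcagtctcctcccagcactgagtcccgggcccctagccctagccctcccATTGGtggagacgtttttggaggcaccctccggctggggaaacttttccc
Col3a1: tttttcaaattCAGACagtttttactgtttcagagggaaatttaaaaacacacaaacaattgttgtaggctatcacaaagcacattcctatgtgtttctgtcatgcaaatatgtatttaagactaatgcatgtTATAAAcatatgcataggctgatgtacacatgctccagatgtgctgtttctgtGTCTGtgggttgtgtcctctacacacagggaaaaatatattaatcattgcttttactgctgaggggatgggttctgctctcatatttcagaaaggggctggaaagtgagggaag
Col4a1: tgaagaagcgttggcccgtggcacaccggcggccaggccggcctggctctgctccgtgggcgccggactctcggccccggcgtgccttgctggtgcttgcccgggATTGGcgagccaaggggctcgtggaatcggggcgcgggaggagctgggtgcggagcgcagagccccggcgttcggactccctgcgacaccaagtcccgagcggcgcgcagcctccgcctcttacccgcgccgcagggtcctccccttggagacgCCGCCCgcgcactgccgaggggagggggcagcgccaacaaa
Col4a2: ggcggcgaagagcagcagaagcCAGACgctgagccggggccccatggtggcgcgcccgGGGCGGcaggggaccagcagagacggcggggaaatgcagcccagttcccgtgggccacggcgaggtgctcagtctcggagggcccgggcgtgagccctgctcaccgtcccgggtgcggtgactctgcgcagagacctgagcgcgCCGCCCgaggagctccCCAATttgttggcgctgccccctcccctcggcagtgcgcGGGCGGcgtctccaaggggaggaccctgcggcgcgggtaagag
Col8a1: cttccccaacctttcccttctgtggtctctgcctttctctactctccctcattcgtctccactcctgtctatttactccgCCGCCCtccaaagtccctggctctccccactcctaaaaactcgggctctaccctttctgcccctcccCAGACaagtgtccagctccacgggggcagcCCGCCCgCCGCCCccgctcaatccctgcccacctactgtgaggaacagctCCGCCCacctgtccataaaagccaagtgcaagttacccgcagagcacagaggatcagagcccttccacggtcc

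Col1a2 held 2 CCAAT matches, 2 GC boxes and 1 CAGAC, Col3a1 held 1 TATA match and 2 CAGAC, and Col8a1 held 4 GC boxes and 1 CAGAC. The windows of Col4a1 and Col4a2 share 78 bases, and their RefSeq start sites lie so that 22 bases are transcribed from both strands. Col4a1 held 1 CCAAT match and 1 GC box, and Col4a2 held 1 CCAAT match, 3 GC boxes and 1 CAGAC. Over the 38 collagen windows, 60.5% held a GC box, 34.2% a CCAAT box, 13.2% a TATA box and 52.6% CAGAC. Among all 32851 RefSeq windows of the same length, the shares were 35.7%, 37.4%, 13.6% and 49.6%. A match says only that these letters are in the window.

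The type V chains, which are built into type I fibrils and set their diameter, were lower as well. Col5a1 was at 37.1, 50.8 and 65.9 CPM with setanaxib, against 81.9, 63.4 and 89.3 CPM with vehicle, and its groups overlapped because setanaxib replicate 3 exceeded vehicle replicate 2 (log2 fold change -0.61, SE 0.23, edgeR adjusted p = 0.559). Exons of Col5a1 overlap 2810430I11Rik and Gm13372, on the other strand. Col5a2, the neighbour of Col3a1 on chromosome 1, was at 19.3, 27.7 and 33.5 CPM with setanaxib, against 48.0, 36.4 and 51.9 CPM with vehicle, without overlap (log2 fold change -0.76, SE 0.23, edgeR adjusted p = 0.464). Col5a3, a less common chain of the type, was at 12.5, 18.4 and 16.9 CPM with setanaxib, against 29.0, 22.8 and 28.2 CPM with vehicle. All setanaxib libraries were below all vehicle libraries (log2 fold change -0.74, SE 0.18, edgeR adjusted p = 0.383, DESeq2 adjusted p = 0.0107). Col27a1, a fibrillar chain best known from cartilage, was at 2.78, 3.33 and 5.53 CPM with setanaxib, against 10.9, 5.68 and 9.84 CPM with vehicle. The gap between setanaxib replicate 3 and vehicle replicate 2 was small, and the fold change was the most negative of the class (log2 fold change -1.18, SE 0.35, edgeR adjusted p = 0.456). Col11a2, also a cartilage chain, was the 1 fibrillar chain with a higher mean, at 0.715 to 2.08 CPM in setanaxib replicates 1 and 2, listed at 0 in replicate 3, and at 0.783 to 0.821 CPM with vehicle.

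Markers of activated fibroblasts, the state that produces fibrillar matrix, were lower as well. All 10 were lower, 7 without overlap (beside 9.46% of all genes) and 6 at an unadjusted p under 0.05 (beside 4.69%). Among the 7 is Cthrc1, at 0 to 0.259 CPM with setanaxib and 0.470 to 0.640 CPM with vehicle. The fibroblast lists were chosen with earlier results of these data known, so their shares beside those of all genes are no test of them. After adjustment edgeR called 0 of the 10 and DESeq2 called 6, where DESeq2 called 1.52% of all genes lower. The median log2 fold change was -1.63, and their summed level was 266, 334 and 171 CPM with setanaxib and 580, 333 and 654 CPM with vehicle. The sums overlapped between the groups. Acta2 made up much of them, at 182, 198 and 67.8 CPM with setanaxib, against 198, 134 and 207 CPM with vehicle. Setanaxib replicate 3 had the lowest sum of these markers but the highest fibrillar levels of its group for 6 of the 8 chains. Its low sum rests largely on Acta2, so the sums do not speak for the list as a whole. Postn, a matrix protein of these cells, averaged 45.1 ± 8.27 CPM with setanaxib and 126 ± 33.8 CPM with vehicle (SD, n = 3 each). Of the 12 general fibroblast markers, 9 were lower, 3 without overlap (beside 9.46% of all genes), with a median of -0.21. They summed to 1393 to 2490 CPM with setanaxib and 1429 to 2079 CPM with vehicle, with the highest sum in setanaxib replicate 3. Most of each sum was Gsn, at 852, 958 and 1676 CPM with setanaxib, against 1176, 770 and 1165 CPM with vehicle. The order of the sums therefore rests largely on this gene. No marker of either list was listed at 0 in every library, and their part in the collagen values was not tested.

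**Figure D3:**
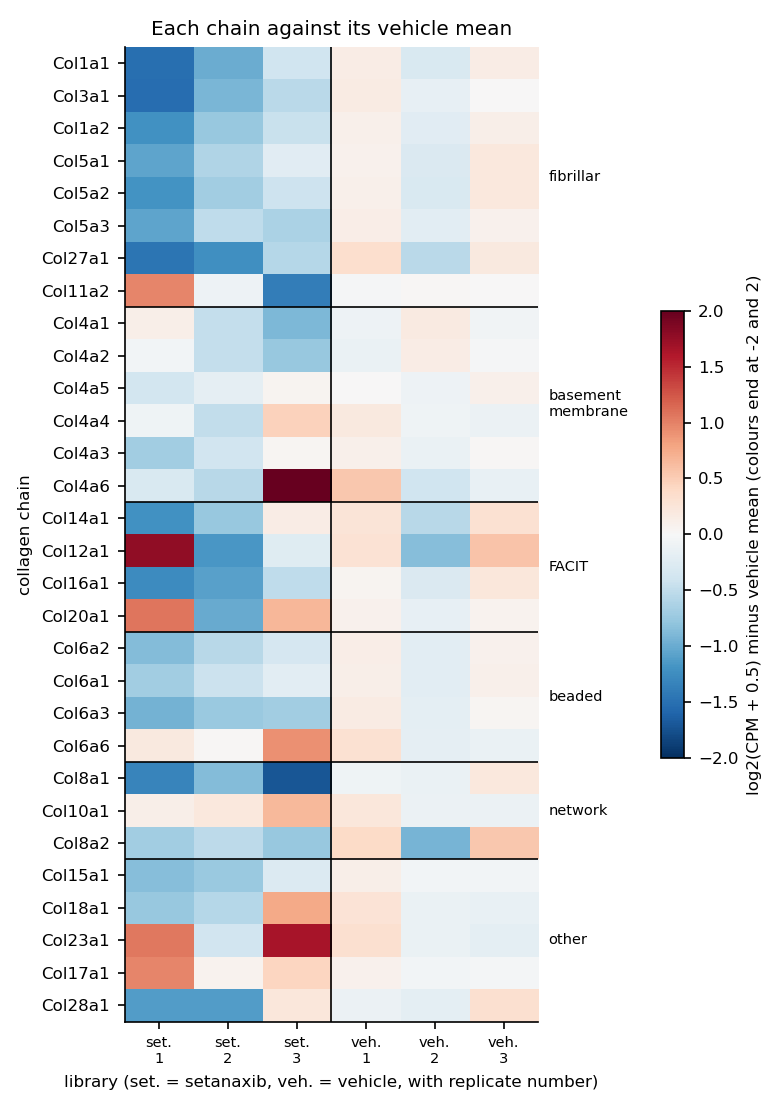
Each tested chain in each library as log2(CPM + 0.5) minus its vehicle mean, rows grouped by class, setanaxib libraries left of the vehicle libraries; blue is lower and red higher. The fibrillar rows except Col11a2 are bluest in setanaxib replicate 1, Col4a1 and Col4a2 in setanaxib replicate 3, and Col4a6 and Col23a1 are red in setanaxib replicate 3.

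Type IV chains were lower in 4 of 6 cases with all libraries and in 6 of 6 without setanaxib replicate 3. With all libraries, 4 were lower and 2 higher, 0 without overlap, 0 at an unadjusted p under 0.05 and 0 called by DESeq2, with a class median of -0.26. The median was -0.28 without setanaxib replicate 3 and -0.13 without setanaxib replicate 1. Col4a1, which with Col4a2 makes the type IV of nearly all basement membranes, was at 405, 269 and 200 CPM with setanaxib, against 349, 422 and 355 CPM with vehicle. Setanaxib replicate 1, the lowest library for the type I chains, was the second highest here, and the groups overlapped (log2 fold change -0.37, SE 0.26, edgeR adjusted p = 0.770). Without setanaxib replicate 1 the log2 fold change of Col4a1 was -0.68, and without setanaxib replicate 3 it was -0.15. Col4a2 was at 287, 215 and 177 CPM with setanaxib, against 274, 332 and 294 CPM with vehicle, in the same order of libraries within the setanaxib group (log2 fold change -0.41, SE 0.19, edgeR adjusted p = 0.640). Its log2 fold change was -0.62 without setanaxib replicate 1 and -0.25 without setanaxib replicate 3. Exons of the pair overlap each other at their starts, on opposite strands, so a few reads may be shared.

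The minor type IV chains were far lower in level. Col4a5 was at 18.1, 20.7 and 24.2 CPM with setanaxib, against 23.4, 21.7 and 25.2 CPM with vehicle, with overlapping groups (log2 fold change -0.16, SE 0.13, edgeR adjusted p = 0.815). Col4a4, a chain of the mature kidney and lung basement membrane, was at 7.96, 5.88 and 11.9 CPM with setanaxib, against 9.72, 7.93 and 7.78 CPM with vehicle, also with overlap (log2 fold change 0.01, SE 0.27, edgeR adjusted p = 0.996). Its partner Col4a3 ranged from 2.41 to 4.33 CPM with setanaxib and from 3.82 to 4.57 CPM with vehicle, and overlaps C430014B12Rik on the other strand. Col4a6 was at 7.73 CPM in setanaxib replicate 3, against 0.875 and 1.14 CPM in the other setanaxib libraries and 1.04 to 2.45 CPM with vehicle. Its log2 fold change was 1.02 with that library and -0.66 without it, and that of Col4a4 was -0.29 without it. The basement membrane partners, a list of 12 that includes laminin chains, nidogens and perlecan, had 10 members lower, with a median of -0.13. Of these, 4 were lower without overlap (beside 9.46% of all genes) and 3 at an unadjusted p under 0.05 (beside 4.69%). edgeR called 0 and DESeq2 called 1, where DESeq2 called 1.52% of all genes lower. Their leading members were Sparc, a collagen-binding glycoprotein (log2 fold change -0.52, SE 0.11), and Nid1, nidogen (-0.29, SE 0.09). Sparc, the 1 called by DESeq2, is also on the list of procollagen processing and cross-linking. Endothelial markers, beside these chains, summed to 1101 to 1271 CPM with setanaxib and 1184 to 1318 CPM with vehicle, with 8 of 12 lower. Without overlap, 1 was lower and 1 higher, near the shares over all genes (9.46% lower and 8.11% higher). Their part was not tested.

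Type VI was lower in its 3 abundant chains. Col6a3, the longest of them, was at 44.7, 51.9 and 53.6 CPM with setanaxib, against 97.0, 75.6 and 89.3 CPM with vehicle. The setanaxib libraries lay close together and below all vehicle libraries, and this was the collagen chain with the smallest p (log2 fold change -0.80, SE 0.13, edgeR adjusted p = 0.234, DESeq2 adjusted p = 3.27e-06). Col6a2 was at 64.3, 79.9 and 93.2 CPM with setanaxib, against 129, 102 and 124 CPM with vehicle, without overlap (log2 fold change -0.58, SE 0.17, edgeR adjusted p = 0.450, DESeq2 adjusted p = 0.0407). Col6a1, next to Col6a2 on chromosome 10, was at 69.4, 83.1 and 96.9 CPM with setanaxib, against 122, 96.5 and 120 CPM with vehicle. Setanaxib replicate 3 and vehicle replicate 2 were nearly equal, so its groups overlapped (log2 fold change -0.44, SE 0.16, edgeR adjusted p = 0.530). Col6a6, a chain that can take the place of the Col6a3 chain, was at 9.91, 8.81 and 16.7 CPM with setanaxib, against 10.8, 7.58 and 7.80 CPM with vehicle, and overlaps Gm38314 on the other strand. It was the 1 type VI chain with a higher mean (log2 fold change 0.44, SE 0.28, edgeR adjusted p = 0.743), at 0.11 without setanaxib replicate 3.

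Network-forming collagens split. Col8a1, a chain of type VIII, a short-chain collagen of vessel walls and remodelling matrix, was at 15.4, 21.4 and 11.7 CPM with setanaxib, against 37.1, 35.9 and 45.3 CPM with vehicle. The groups were well apart, and here setanaxib replicate 3 was the lowest library (log2 fold change -1.29, SE 0.23, edgeR adjusted p = 0.287, DESeq2 adjusted p = 9.60e-05). Its partner Col8a2 ranged from 0.728 to 0.943 CPM with setanaxib and from 0.596 to 2.51 CPM with vehicle, where vehicle replicate 2 was the lowest library of all. Col10a1, the collagen of hypertrophic cartilage, ranged from 2.23 to 3.43 CPM with setanaxib and from 1.81 to 2.44 CPM with vehicle, and overlaps Nt5dc1 on the other strand.

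FACITs gave no common direction. Col16a1, which binds fibrils and integrins, was at 2.96, 3.40 and 5.30 CPM with setanaxib, against 8.10, 6.27 and 9.14 CPM with vehicle, without overlap (log2 fold change -1.01, SE 0.27, edgeR adjusted p = 0.418, DESeq2 adjusted p = 0.0281). Col14a1, a fibril-surface chain of mature connective tissue, was at 17.6, 24.1 and 45.8 CPM with setanaxib, against 49.4, 28.0 and 51.0 CPM with vehicle, and setanaxib replicate 3 lay among the vehicle libraries (log2 fold change -0.55, SE 0.40, edgeR adjusted p = 0.776). Without that library its log2 fold change was -1.03, and without setanaxib replicate 1 it was -0.30. Col12a1, a long FACIT of tendon and injured tissue, was at 27.4, 3.13 and 6.40 CPM with setanaxib, against 9.45, 3.99 and 11.6 CPM with vehicle. Setanaxib replicate 1, lowest for most fibrillar chains, was the highest library for Col12a1, and its log2 fold change, 0.56 (SE 0.82, edgeR adjusted p = 0.907), was -0.81 without it. Col20a1 ranged from 0.548 to 3.92 CPM with setanaxib and from 1.38 to 1.72 CPM with vehicle, again with setanaxib replicate 1 highest, and overlaps BX649560.1 on the same strand.

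Among the remaining chains, the multiplexin Col15a1, a chain of the basement membrane zone of muscle and capillaries, was at 60.8, 65.8 and 90.9 CPM with setanaxib, against 119, 106 and 106 CPM with vehicle. All setanaxib libraries were lower (log2 fold change -0.61, SE 0.17, edgeR adjusted p = 0.441, DESeq2 adjusted p = 0.0296), and Gm12426 overlaps it on the other strand. Col18a1, the related chain whose end fragment is endostatin, was at 4.74, 5.45 and 14.5 CPM with setanaxib, against 10.2, 7.57 and 7.51 CPM with vehicle. Setanaxib replicate 3 was its highest library and the other setanaxib libraries its lowest, and its log2 fold change, -0.04 (SE 0.44, edgeR adjusted p = 0.993), was -0.72 without replicate 3. The transmembrane chain Col23a1 ranged from 2.06 to 10.01 CPM with setanaxib and from 2.44 to 3.68 CPM with vehicle, and its log2 fold change, 1.10 (SE 0.54, edgeR adjusted p = 0.662), was 0.57 without setanaxib replicate 3. The transmembrane chain Col17a1 ranged from 1.45 to 3.16 CPM with setanaxib and from 1.29 to 1.48 CPM with vehicle. Col28a1 was listed at 0 in setanaxib replicates 1 and 2 and at 0.766 CPM in replicate 3, against 0.495, 0.445 and 0.853 CPM with vehicle. In all, 6 chains had their highest level of any library in setanaxib replicate 3, namely Col4a4, Col4a6, Col6a6, Col10a1, Col18a1 and Col23a1, and without it 23 of the 30 chains were lower.

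**Figure D4:**
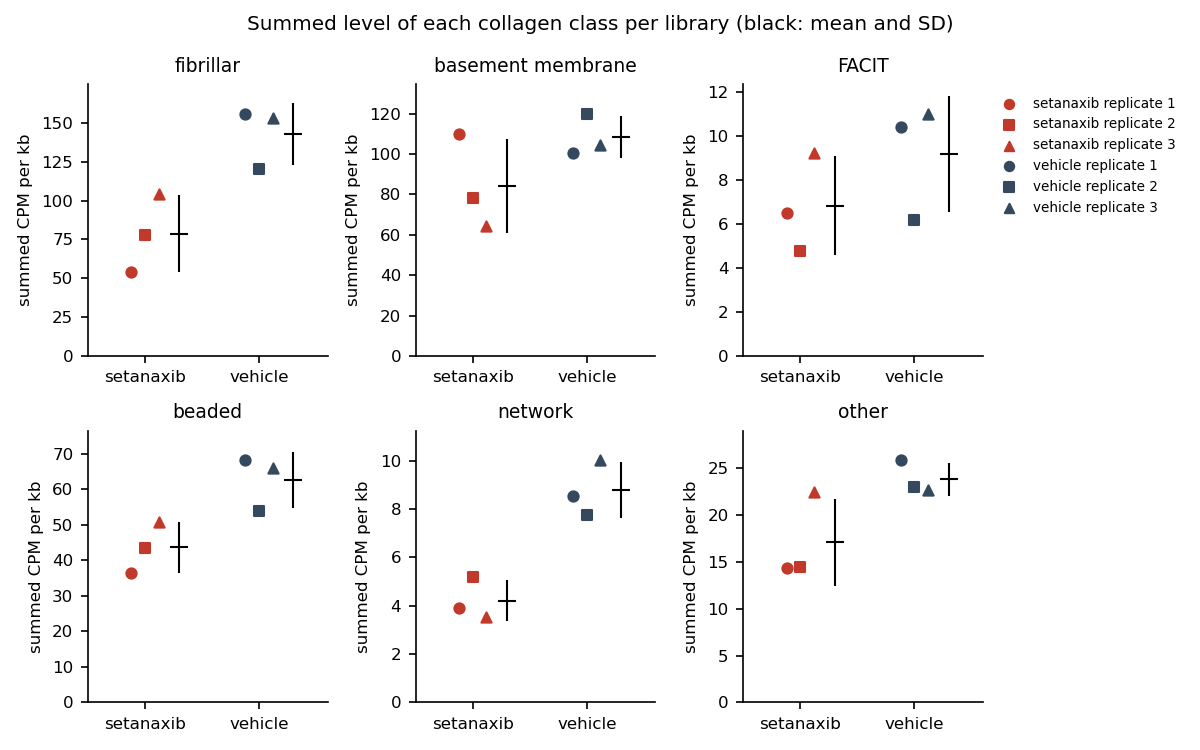
Summed level of each collagen class (CPM per kb over its chains) in each library, setanaxib left of vehicle, with the mean and SD in black; each axis starts at 0. The groups do not overlap for the fibrillar, beaded, network and other classes, and overlap for the basement membrane and FACIT classes. In the other class, setanaxib replicate 3 (22.47) and vehicle replicate 3 (22.65) are nearly equal. Most of the other sum is Col15a1 and most of the network sum is Col8a1, so these sums do not speak for the rest of their classes.

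Summed over chains per kilobase, fibrillar collagen averaged 78.8 ± 24.9 CPM per kb with setanaxib and 143 ± 19.9 with vehicle (SD, n = 3 each). Type IV averaged 84.1 ± 23.3 with setanaxib and 108 ± 10.2 with vehicle. The beaded class averaged 43.6 ± 7.29 with setanaxib and 62.6 ± 7.75 with vehicle, and the network class 4.21 ± 0.852 with setanaxib and 8.77 ± 1.16 with vehicle. As a share of all collagen, type IV was 48.8%, 34.9% and 25.2% in setanaxib replicates 1 to 3, against 27.2%, 36.3% and 28.5% in vehicle replicates 1 to 3. The fibrillar share was 24.2%, 34.8% and 40.9% with setanaxib, against 42.2%, 36.3% and 41.7% with vehicle. The type IV share had an SD of 11.8 percentage points among setanaxib libraries and 4.91 among vehicle libraries, a difference that was not tested. Type IV was the largest class in setanaxib replicate 1 and fibrillar collagen in setanaxib replicate 3. All collagen chains together summed to 225, 224 and 254 CPM per kb with setanaxib, against 370, 331 and 367 with vehicle, so that the total did not overlap between the groups and was close among the setanaxib libraries.

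Ratios between chains were taken from CPM, not per length, so that library scaling cancels within a ratio and gene length only in the log2 difference between groups. They were compared for 13 pairs with an exact two-sided permutation test, whose smallest possible p with 3 against 3 libraries is 0.1. No pair can therefore pass 0.05, and adjusted over the 13 pairs the smallest p was 0.325. Type III against type I, Col3a1/Col1a1, was 0.804, 0.859 and 0.736 with setanaxib, against 0.814, 0.887 and 0.728 with vehicle. The setanaxib values lay within the range of the vehicle values, with a log2 difference of -0.02 (exact p = 0.8). Col4a1/Col4a2, the pair with adjoining start sites, was 1.41, 1.25 and 1.13 with setanaxib, against 1.27, 1.27 and 1.21 with vehicle (log2 difference 0.01, exact p = 1). Col4a1/Col1a1 was 3.92, 1.82 and 0.893 with setanaxib, against 1.07, 1.76 and 1.08 with vehicle, a wide spread within the setanaxib group and overlapping groups (log2 difference 0.55, exact p = 0.6).

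For 4 of the 13 pairs the groups did not overlap, each at the smallest possible exact p of 0.1. These pairs share the chains Col5a1 and Col6a1, so they are not independent of each other. No share over pairs of other genes was taken. Col6a3/Col6a1 was 0.644, 0.624 and 0.553 with setanaxib, against 0.798, 0.783 and 0.741 with vehicle, so that Col6a3 was lower relative to Col6a1 (log2 difference -0.35). Col6a1/Col6a2 was 1.08, 1.04 and 1.04 with setanaxib, against 0.942, 0.949 and 0.969 with vehicle (log2 difference 0.14). Col5a1/Col1a1 was 0.359, 0.343 and 0.295 with setanaxib, against 0.2503, 0.264 and 0.272 with vehicle (log2 difference 0.34), and Col5a1/Col5a2 was 1.93, 1.83 and 1.97 with setanaxib, against 1.71, 1.74 and 1.72 with vehicle (log2 difference 0.15). The remaining pairs overlapped, among them Col1a1/Col1a2, at 1.62 to 2.05 with setanaxib and 1.90 to 2.06 with vehicle.

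**Figure D5:**
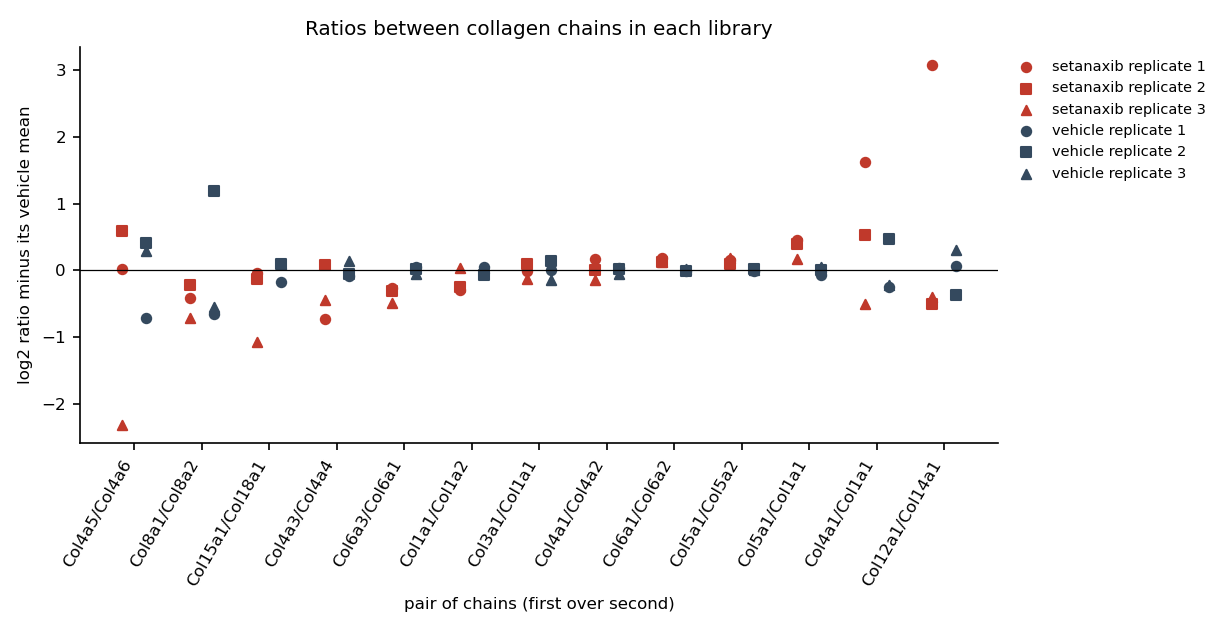
Log2 ratio of each of the 13 pairs of chains in each library, minus the pair's vehicle mean, setanaxib (red) left of vehicle (blue). Col6a3/Col6a1 lies below its vehicle points in all 3 setanaxib libraries, Col6a1/Col6a2, Col5a1/Col5a2 and Col5a1/Col1a1 lie above, and the widest spreads are single libraries of Col12a1/Col14a1 and Col4a5/Col4a6.

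Genes that fold, process and bind collagen were read from the same fit, and edgeR called 0 of each list after adjustment over all genes. The lists were chosen with earlier results of these data known, so their shares beside those of all genes are no test of them. Of all tested genes, 48.4% were lower, and 9.46% were lower and 8.11% higher without overlap. At an unadjusted p under 0.05, 4.69% of all genes were lower and 3.76% higher, and DESeq2 called 1.52% lower. Of 20 genes of collagen folding and modification, 15 were lower, 5 without overlap (median log2 fold change -0.15). Another 2 were higher without overlap, near the share over all genes. At an unadjusted p under 0.05, 5 were lower and 1 higher, and DESeq2 called 3 lower. P4ha1, a prolyl hydroxylase subunit that stabilises the helix, averaged 17.0 ± 3.25 CPM with setanaxib and 27.9 ± 1.66 CPM with vehicle, and Serpinh1, the collagen chaperone HSP47, averaged 102 ± 9.81 CPM with setanaxib and 153 ± 24.5 CPM with vehicle (SD, n = 3 each). Of 16 genes of procollagen processing and cross-linking, 14 were lower, 5 without overlap, and 1 was higher without overlap (median -0.42). At an unadjusted p under 0.05, 4 of these were lower and 1 higher, and DESeq2 called 3 lower. Loxl2, a cross-linking oxidase, led them (log2 fold change -0.62, SE 0.08). Sparc, counted above among the basement membrane partners, is on this list too and among its 3 DESeq2 calls. Of 11 collagen receptor and uptake genes, 6 were lower, near the share over all genes, and 3 of these did not overlap (median -0.09). The lower genes were led by Itga1, the collagen-binding integrin subunit of mesenchymal cells (log2 fold change -0.43, SE 0.10), and Mrc2, an endocytic collagen receptor (-0.58, SE 0.13). The 3 lower without overlap do not all coincide with the 3 lower at an unadjusted p under 0.05, and DESeq2 called 2. Of 10 tested proteoglycans and glycoproteins of fibril assembly, 8 were lower, 3 without overlap (median -0.44), led by Lum, lumican (-0.57, SE 0.16), and Bgn, biglycan (-0.75, SE 0.25), with 3 lower at an unadjusted p under 0.05 and 0 called by DESeq2.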

How the data were processed

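Heart RNA was sequenced in 6 libraries, 3 per group, as paired reads of 150 bases from 1 µg of total RNA, per the labels' protocols. The authors deposited expected counts (estimated counts per gene, whole numbers, unscaled); rounding was therefore not needed. The submitters' processing notes name the build GRCm39 and, without their roles, DESeq2 1.42.0, featureCounts 2.0.1, STAR 2.5.4b and FastQC 0.11.9; per the file headers, names have the form of StringTie's count script. No source used here gives the strand setting, so overlapping genes are uncertain. Genes were filtered with filterByExpr (minimum 10), leaving 20472, and scaled by TMM (factors 0.892 to 1.191). The comparison, setanaxib minus vehicle, used edgeR 4.0.16 (quasi-likelihood, two-sided, Benjamini-Hochberg over all genes, threshold 0.05) in R 4.3.3; SEs derive from its F statistic. Alternatives were DESeq2 1.42.0, limma-voom (limma 3.58.1), other scalings and filters, and each library left out. The edgeR step was tested on simulated data. Lengths are the longest coding transcript of GENCODE M21 (GRCm38), where all 44 IDs have the same symbol; it also gave exon overlaps, and none of its coordinates are printed.

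Members, classes, the 5 lists of collagen-related genes, the 13 marker lists and the 13 pairs were chosen with earlier results of these data known. A list's share beside that of all genes is therefore no test of the list. Some genes, among them Sparc, Lum and Comp, are on more than 1 list. Values in every library are printed for the 22 tested chains that average at least 5 CPM, do not overlap between groups or are among the 3 largest absolute fold changes, and the other 8 tested chains by range; Col4a6 and Col11a2 were given in more detail after their values were seen. Of other lists, the member of lowest p and at most 2 more are named. Myh6, Tnnt2, Sftpc, Sftpb, Nkx2-1, Scgb1a1, Acan, Ckm, Acta2, Cthrc1 and Gsn were named outside this rule, after their values were seen. Replicates are numbered by accession order, which pairs none of them.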

Additional observations from a re-analysis of the deposited data

How the results depend on the processing

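edgeR and limma-voom called 0 chains under every setting run. DESeq2 called 8 chains and 494 genes, edgeR 1 gene, limma-voom 0. Of 30 chains, 25 kept the sign of their log2 fold change under every alternative run. Col4a4 and Col11a2 turned with limma-voom (-0.031 and -2.23). With 1 library left out, Col4a4 ranged from -0.29 to 0.22, Col11a2 from -1.18 to 0.80, Col12a1 from -0.81 to 1.02, Col18a1 from -0.72 to 0.23 and Col4a6 from -0.66 to 1.47. Over the same fits the number of genes called ranged from 0 (without any 1 of the vehicle libraries) to 1, chains lower without overlap from 11 to 18 (beside 12.5% to 18% of all genes), chains lower at an unadjusted p under 0.05 from 9 to 17 (beside 2.7% to 7.91% of all genes), the median over chains from -0.71 to -0.42, the FACIT median from -0.56 to 0.29 and the network median from -1.35 to -0.78. Chains higher at an unadjusted p under 0.05 ranged from 0 to 3 over these fits. The 3 came without setanaxib replicate 2, where 9 of 30 chains were lower and 988 of 21068 genes were higher. With DESeq2 on all libraries, 1 chain was higher at an unadjusted p under 0.05, beside 994 of 20472 genes. The network median was -0.43 with at least 1 CPM in 3 libraries and -0.85 with limma-voom, each with fewer chains tested or a different fit. The median of the other chains, -0.04 with all libraries, was -0.61 with no filter and 0.34 with at least 1 CPM in 3 libraries, where different numbers of chains were tested, and -0.42 to 0.19 with 1 library left out, so that its sign is not settled. Of the ratios, 8 of 13 kept their sign; log2 differences ranged from -0.091 to 0.051 for Col3a1/Col1a1, -0.073 to 0.089 for Col4a1/Col4a2, -1.15 to 0.31 for Col4a5/Col4a6, -0.77 to 0.15 for Col8a1/Col8a2 and -0.45 to 1.34 for Col12a1/Col14a1. Scaling cancels in ratios, so the other alternatives gave them no further value. Beyond these constructions the cause was not tested. No paired analysis was possible because the labels give the groups no shared replicate numbers. The zeros of chains under 1 CPM may be failed estimates. Col28a1, at 0 in setanaxib replicates 1 and 2, had 60 to 116 estimated counts in the other libraries. Col11a2, at 0 in setanaxib replicate 3, had 94 to 265 in the others. The part of depth in these zeros was not tested.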

Other observations

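Markers of further cell types were summed per library beside the collagens. Their lists too were chosen with earlier results of these data known, so shares beside those of all genes are no test of them. Macrophage markers had 9 of 10 members lower, all 9 without overlap, beside 9.46% of all genes. Their sums were 227 to 283 CPM with setanaxib and 352 to 451 CPM with vehicle. Fcer1g had the smallest p (log2 fold change -0.85, SE 0.18, edgeR adjusted p = 0.356). Smooth muscle and pericyte markers, cells that make type IV and type VIII collagen, had 8 of 10 lower, 5 without overlap, beside 9.46% of all genes. They summed to 762 to 1061 CPM with setanaxib and 1011 to 1069 CPM with vehicle. Schwann cell markers, a source of minor type IV chains and of type XXVIII collagen, had 3 of 8 lower and summed to 9.11, 10.5 and 35.7 CPM in setanaxib replicates 1 to 3, against 17.0, 12.3 and 15.5 CPM with vehicle. The markers of epicardium and mesothelium, of which 6 were found and 2 tested, summed to 7.18, 2.87 and 36.4 CPM with setanaxib, against 6.25, 5.34 and 4.67 CPM with vehicle. Cartilage and valve markers, of which 4 were tested and Acan was listed at 0 throughout, summed to 8.32, 20.4 and 46.7 CPM with setanaxib, against 59.7, 18.4 and 80.0 CPM with vehicle. Of these, Comp was at 4.84, 12.8 and 23.4 CPM with setanaxib, against 45.4, 8.91 and 67.0 CPM with vehicle. Skeletal muscle markers, of which 3 were tested, summed to 661 to 1442 CPM with setanaxib and 1239 to 1416 CPM with vehicle, most of it from Ckm, which heart muscle also expresses.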
